A study of Mus musculus with 6 samples.

Results

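The PI3K-like kinases are very large serine/threonine kinases that resemble lipid kinases in their catalytic domain. The genes described here were the 6 members of this family, Atm, Atr, Prkdc, Smg1, Mtor and Trrap, together with Atrip and the 3 genes of their shared chaperone, Telo2, Tti1 and Tti2. They were chosen by gene symbol, and all 10 had a row among the 54532 genes of the count table and passed the filter on low counts. Messenger RNA had been sequenced from 32D cells, a mouse myeloblast-like line grown with interleukin-3, after transduction with a retrovirus that carries human U2AF1 and GFP. U2AF1 is the splicing factor subunit that reads the end of an intron. The tested cells carried the S34F substitution of myeloid malignancies (S34F) and the control cells the wild-type protein (WT), with 3 libraries each. The labels name no change to the mouse U2af1 gene in either group. They also do not say whether the libraries of a group came from separate cultures, so the p-values reflect only how far these libraries differ, which may be technical.

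As background, each kinase has its own task. ATM answers double-strand breaks, and ATR answers single-stranded DNA at stalled forks through its partner ATRIP. DNA-PKcs, the product of Prkdc, acts in the joining of broken ends. SMG1 phosphorylates UPF1 in nonsense-mediated decay, mTOR couples growth to nutrients, and TRRAP, which has lost kinase activity, is a scaffold of histone acetyltransferase complexes. All depend on the TTT complex of TELO2, TTI1 and TTI2, which works with HSP90 and the R2TP complex to fold newly made PI3K-like kinases.

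Atm and Npat, which encodes a coactivator of histone gene transcription, lie head to head on chromosome 9. Their RefSeq promoter windows (GRCm38.p6, from 250 bases before to 50 after each start site) are shown because the pair shares its start region and the counts of both genes are given below. The start sites were 376 bases apart. The windows are chr9:53536622-53536921 on the minus strand for Atm and chr9:53536797-53537096 on the plus strand for Npat. Capitals mark the 125 bases that both windows hold, each on its own strand.
Atm: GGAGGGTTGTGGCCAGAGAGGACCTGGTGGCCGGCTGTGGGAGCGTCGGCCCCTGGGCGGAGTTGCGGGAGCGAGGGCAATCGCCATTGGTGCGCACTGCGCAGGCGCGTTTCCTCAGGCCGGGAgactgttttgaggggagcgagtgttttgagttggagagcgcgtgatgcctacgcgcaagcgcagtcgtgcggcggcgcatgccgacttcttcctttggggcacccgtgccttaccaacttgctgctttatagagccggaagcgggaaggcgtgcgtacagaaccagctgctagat
Npat: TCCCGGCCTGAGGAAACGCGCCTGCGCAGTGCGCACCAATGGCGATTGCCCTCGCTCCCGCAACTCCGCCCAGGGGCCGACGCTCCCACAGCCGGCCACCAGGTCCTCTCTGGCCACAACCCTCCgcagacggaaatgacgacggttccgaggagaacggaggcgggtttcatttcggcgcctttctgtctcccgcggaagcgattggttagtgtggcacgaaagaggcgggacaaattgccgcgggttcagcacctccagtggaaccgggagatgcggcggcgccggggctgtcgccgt
The shared bases held 1 CCAAT box, which begins at position 86 of the Atm window and position 36 of the Npat window, and 1 GGGCGG box, which begins at positions 55 and 66. Outside them, the Atm window held TATAAA at position 251 and the Npat window another CCAAT at position 204. All motifs were searched on both strands and counted from the 5′ end of each window. The GC content was 64% in the Atm window and 66.7% in the Npat window, with 28 and 35 CpG, where the median over 32851 RefSeq windows was 52.7% and 7 CpG. Windows were matched for 8 of the 10 genes. Of these, 5 held CCAAT and 6 held GGGCGG, against 37.4% and 35.7% of all windows. TATAAA and CACGTG were also searched and were held by 1 gene each, against 13.6% and 7.15% of all windows. The matched windows had a GC content of 56.7% to 72%, so all windows differ from them in base composition. These matches describe letters in a window and say nothing of binding.

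Gene counts totalled 16716979 to 19129250 per library in S34F and 16509899 to 18119760 in WT. The 10 genes had between 343 and 9431 counts in a library. WT replicates 2 and 3 stood apart as the closest pair of libraries, with a biological coefficient of variation of 3.16%, where other pairs of 1 group had 16.5% to 21.5%. The calls on the kinases, the chaperone and their partners are therefore also given with these 2 libraries summed into 1. U2af1 itself had a log2 fold change of 0.17 ± 0.25 (SE over 3 libraries a group; edgeR adjusted p = 0.721), which ran from 0.037 to 0.48 with 1 library left out. That row is the mouse gene, and its counts do not show how reads of the human U2AF1 were assigned. Of the myeloblast and granulocyte precursor markers, Kit and Elane had only 3 and 19 counts over all 6 libraries. Mpo, Prtn3, Ctsg, Csf2rb, Il3ra, Ptprc, Spi1 and Myb were detected in every library. Of these 8, 6 had a positive log2 fold change, while Prtn3 lay at -0.40 and Myb at -0.39 (edgeR adjusted p = 0.325 and 0.319). Spi1, a myeloid transcription factor gene, rose (log2 fold change 0.60, edgeR adjusted p = 0.0491; 0.192 with WT replicates 2 and 3 summed and 0.126 with the GC trend described below removed). The 5 macrophage markers summed to 260 to 351 CPM in S34F and 225 to 249 CPM in WT, with C1qa at 0 and most of the sum from Adgre1. Cd68, a lysosomal protein gene of macrophages, had 32.4, 32.2 and 32.0 CPM in S34F, against 19.9, 7.54 and 7.46 CPM in WT, without overlap. Its log2 fold change was 1.47 (edgeR adjusted p = 0.0695, DESeq2 adjusted p = 0.000783, limma-voom adjusted p = 0.0382), and 1.25 with WT replicates 2 and 3 summed (edgeR adjusted p = 0.232). Csf1r, the receptor gene for macrophage growth factor, had 16.0, 34.9 and 4.84 CPM in S34F and 10.3, 4.54 and 5.68 CPM in WT, with overlap (log2 fold change 1.44, edgeR adjusted p = 0.217). T cell markers summed to at most 0.27 CPM in S34F and 0.166 CPM in WT, with Cd3e at 0. The 4 mast cell and basophil markers, mainly Gata2, summed to 409 to 530 CPM in S34F and 387 to 482 CPM in WT, and erythroid and fibroblast markers to at most 3.08 CPM in S34F and 2.91 CPM in WT. The part of these marker differences in the results below was not tested. In these bulk samples fewer cells of a type and less RNA per cell cannot be told apart.

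**Figure D1:**
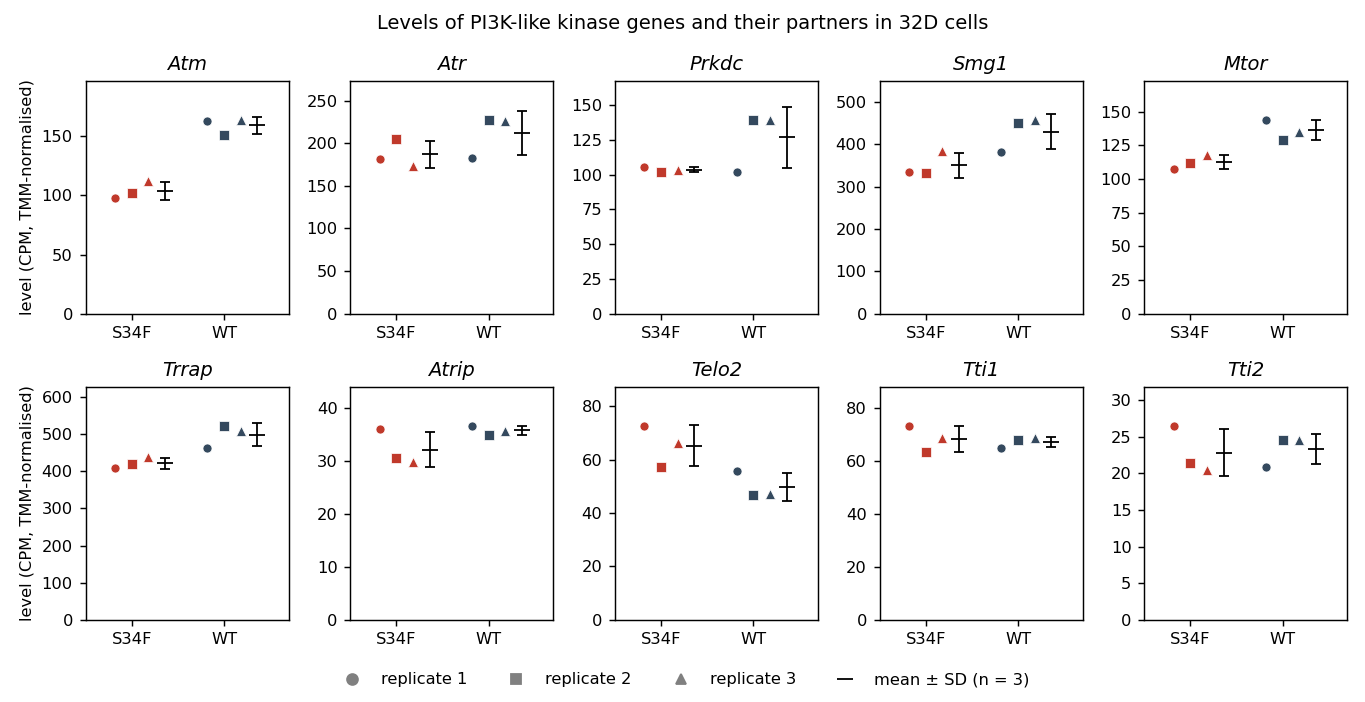
Level of each of the 10 genes in CPM (counts scaled to library size with TMM factors; linear axes that start at 0) in the 3 S34F libraries (red, left) and the 3 WT libraries (blue, right), with the mean and SD. The 3 S34F libraries lie below all WT libraries for Atm, Mtor and Trrap and above them for Telo2.

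Across the 10 genes, Atm fell in S34F cells and the other 9 did not pass the test (quasi-likelihood test of edgeR at an adjusted p of 0.05 over 13444 genes). Over all genes tested, 2.18% were called, 1.58% as higher and 0.595% as lower in S34F. The log2 fold change was negative for 8 of the 10 genes, with a median of -0.21 where the median over all tested genes was 0.00052. The S34F libraries lay wholly below the WT libraries for 3 genes, a pattern held by 13.1% of all genes tested, and wholly above for 1 gene, a pattern held by 14.0%. At an unadjusted p under 0.05 there were 4 of the 10 genes, Atm, Telo2, Mtor and Smg1, and 22.0% of all genes. DESeq2 and limma-voom also called Atm alone among the 10 (adjusted p = 4.1e-05 and 0.0306), in fits that called 9.13% and 2.02% of all genes.

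Atm (ENSMUSG00000034218, chromosome 9, 53439149 to 53536740, minus strand, mm10) has 62 exons in its longest annotated transcript. It gave 97.5, 102 and 112 CPM in S34F replicates 1 to 3, against 163, 151 and 164 CPM in WT replicates 1 to 3. The highest S34F library lay well below the lowest WT library. Atm fell 1.54-fold, with a log2 fold change of -0.62 ± 0.11 (SE over 3 libraries a group; edgeR adjusted p = 0.0286) and a 95% interval of -0.86 to -0.38. By unadjusted p it stood at place 124 of the genes tested. With WT replicates 2 and 3 summed the log2 fold change was -0.63 and the call was lost (edgeR adjusted p = 0.132). It was also lost without S34F replicate 1, S34F replicate 3, WT replicate 2 or WT replicate 3 (edgeR adjusted p = 0.116, 0.0735, 0.121 and 0.161), while the log2 fold change of these fits stayed between -0.68 and -0.58.

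Fold changes in this comparison followed the base composition and length of the transcripts, with a Spearman's rho of 0.316 with GC content and -0.156 with length across 13433 genes, which are not independent replicates. The Atm transcript has a GC content of 42.6%, higher than that of 17.1% of tested genes, and a length of 9.82 kb, longer than 98% of them. With the GC trend of each library removed the log2 fold change of Atm was -0.50 (edgeR adjusted p = 0.0683), and with the GC and length trends removed it was -0.41 (adjusted p = 0.119). The other kinase genes are long as well, between 8.10 and 15.6 kb, but differ in GC content. Atr, Prkdc and Smg1 have 40.8%, 43.3% and 44.9%, while Mtor and Trrap have 54.2% and 53.6%. With both trends removed the log2 fold changes of Atr, Prkdc and Smg1 were 0.062, -0.055 and -0.083, and those of Mtor and Trrap were -0.31 and -0.23.

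**Figure D2:**
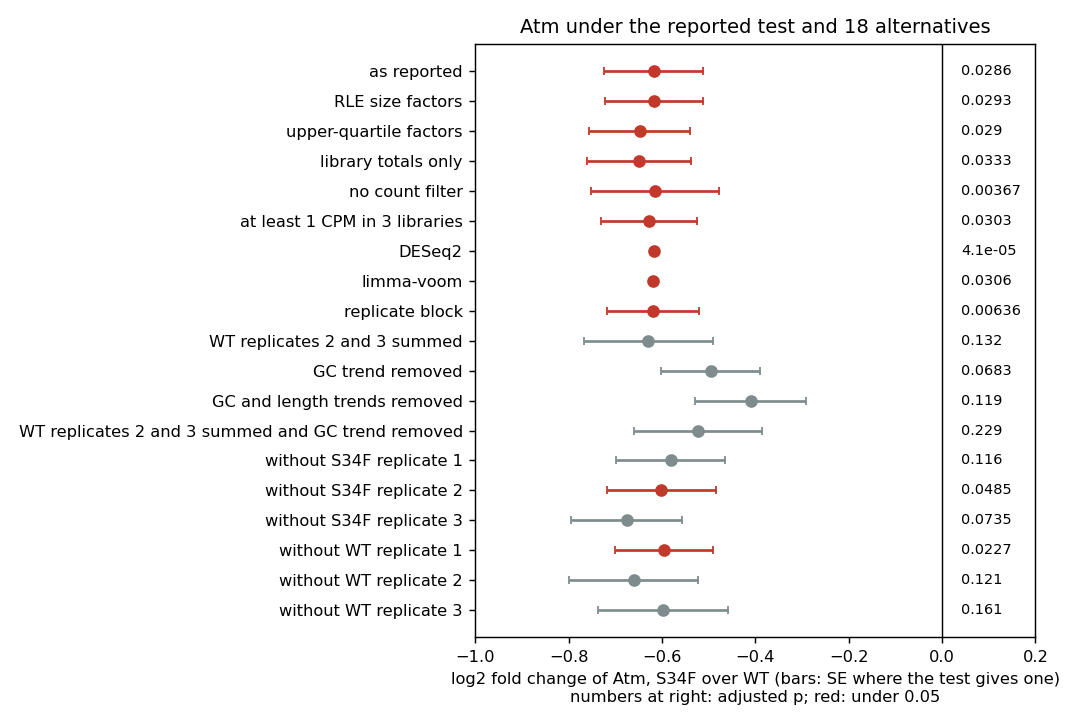
Log2 fold change of Atm (x axis, S34F over WT) under the reported test and 18 alternatives (y axis), with the SE where the test gives one and the adjusted p at the right. The values lie between -0.68 and -0.41 in the alternatives, and 10 of the 18 pass the threshold (red).

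Npat (ENSMUSG00000033054) gave 86.8, 103 and 97.8 CPM in S34F replicates 1 to 3, against 106, 136 and 139.6 CPM in WT replicates 1 to 3. The groups did not overlap, but the lowest WT library was only slightly above the highest S34F library. Its log2 fold change was -0.41 ± 0.14 (SE over 3 libraries a group; edgeR adjusted p = 0.134), with a 95% interval of -0.72 to -0.10. For Npat this was -0.23 with the GC trend removed, -0.19 with GC and length trends removed, and -0.52 without WT replicate 1 (edgeR adjusted p = 0.294, 0.335 and 0.0297), the last in a fit that called 8.51% of all genes. The ratio of Atm to Npat was 1.12, 0.994 and 1.15 in the S34F libraries and 1.54, 1.11 and 1.18 in the WT libraries. The ranges overlapped, and the difference between the changes of the neighbours was within the spread between libraries (log2 difference -0.22, two-sided exact permutation p = 0.3, adjusted p = 0.375 over 5 ratios; 3 libraries against 3 cannot go below 0.1). Atm counts set against the summed counts of the other 5 kinase genes gave a ratio of 0.0883 ± 0.00345 in S34F and 0.114 ± 0.0128 in WT (SD over 3 libraries; two-sided exact permutation p = 0.1, adjusted p = 0.167). All S34F libraries were below all WT libraries in this ratio, as they were for Atm alone.

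**Figure D3:**
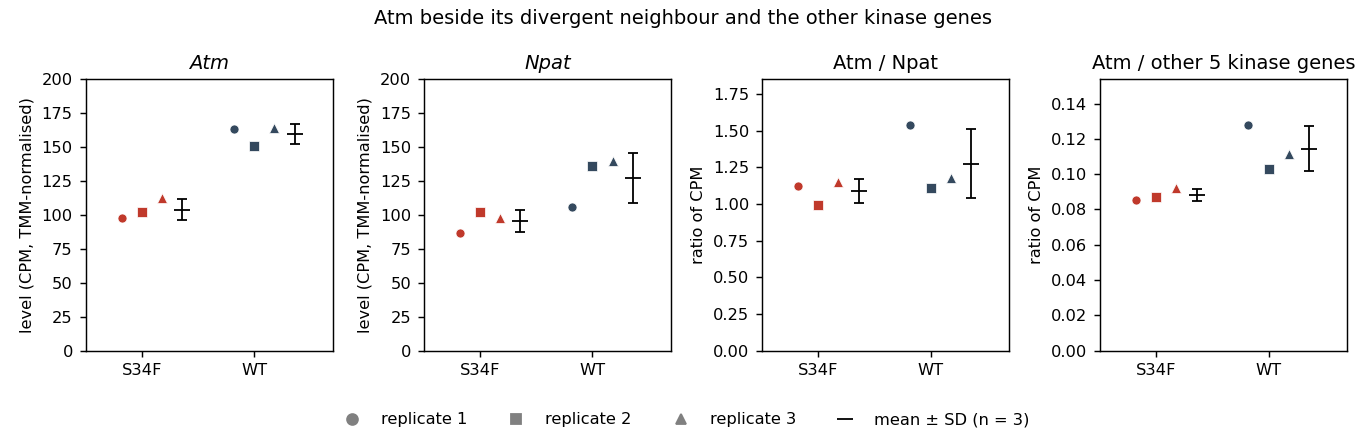
Levels of Atm and Npat in CPM and the ratios of Atm to Npat and to the summed other 5 kinase genes (linear axes that start at 0), by library, with S34F in red at the left, WT in blue at the right and the mean and SD in black. The groups overlap in the ratio of Atm to Npat and do not overlap in the other 3 panels.

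Genes that act with ATM showed no call. The list held the sensor genes Mre11a, Rad50 and Nbn, the cofactor gene Atmin and effector genes such as Chek2, Mdc1, Trp53bp1, H2afx and Brca1. None of its 12 members passed by edgeR, DESeq2 or limma-voom, which called 2.18%, 9.13% and 2.02% of all genes tested. A list this short cannot be told apart from any of these shares. None had an unadjusted p under 0.05, against 22.0% of all genes, and the median log2 fold change was -0.14. The members with the smallest p were Rnf168, a ubiquitin ligase at breaks, and Brcc3, a deubiquitinase, with log2 fold changes of -0.21 and -0.17 (edgeR adjusted p = 0.332 and 0.392). Removal of the GC trend put Rnf168 at -0.12 and Brcc3 at 0.11, the opposite sign.

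Atr (ENSMUSG00000032409, chromosome 9, 95857597 to 95951781, plus strand) gave 182, 205 and 174 CPM in S34F replicates 1 to 3, against 183, 228 and 226 CPM in WT replicates 1 to 3. WT replicate 1 lay among the S34F libraries and below the other WT libraries. For Atr the log2 fold change was -0.18 ± 0.13 (SE over 3 libraries a group; edgeR adjusted p = 0.432), with a 95% interval of -0.47 to 0.11. Atrip, whose product brings ATR to coated single-stranded DNA, had 36.1, 30.7 and 29.9 CPM in S34F and 36.7, 35.1 and 35.7 CPM in WT. The log2 fold change of Atrip was -0.15 ± 0.12 (edgeR adjusted p = 0.501), and S34F replicate 1 lay within the WT range. Removal of the GC trend put Atrip at -0.28, and leaving out S34F replicate 1 or S34F replicate 3 put it at -0.25 or -0.10. Trex1, an exonuclease gene on the same strand, lies over 16.0% of the exon bases of Atrip and had 0 counts in every library, so the counts do not show how reads in the shared exons were assigned.

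Of the 15 sensor and effector genes of the ATR pathway, edgeR called 0, DESeq2 1 and limma-voom 0, and 3 had an unadjusted p under 0.05. The log2 fold change was negative for 13 of them, with a median of -0.19, and for 6 the S34F libraries lay wholly below WT. Over all genes tested 13.1% lay wholly below, 22.0% had an unadjusted p under 0.05 and 9.13% were DESeq2 calls. Chek1, the kinase that ATR activates, had 73.2, 78.9 and 59.7 CPM in S34F, against 111, 89.8 and 93.8 CPM in WT. Its log2 fold change of -0.47 ± 0.14 did not pass (SE over 3 libraries a group; edgeR adjusted p = 0.107), though DESeq2 gave an adjusted p of 0.0417. It was -0.31 with GC and length trends removed, and the edgeR adjusted p was 0.262 with WT replicates 2 and 3 summed. Etaa1, which encodes an activator of ATR, averaged 22.3 ± 0.795 CPM in S34F and 30.6 ± 4.30 CPM in WT (SD, n = 3), with a log2 fold change of -0.45 (edgeR adjusted p = 0.121). Without WT replicate 1, in a fit that called 8.51% of all genes, edgeR gave Etaa1 an adjusted p of 0.0444. With WT replicates 2 and 3 summed it gave 0.375. Etaa1 lay at -0.26 on the log2 scale with the GC trend removed and at -0.24 with GC and length trends removed (edgeR adjusted p = 0.315 and 0.328).

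Prkdc (ENSMUSG00000022672, chromosome 16, 15637866 to 15842235, plus strand) gave 106, 102 and 103 CPM in S34F replicates 1 to 3, against 102, 139.6 and 139.5 CPM in WT replicates 1 to 3. The S34F libraries were nearly equal, and WT replicate 1 lay within their range. For Prkdc the log2 fold change was -0.29 ± 0.14 (SE over 3 libraries a group; edgeR adjusted p = 0.254). Without WT replicate 1, which leaves the close pair of WT libraries, it was -0.43 (edgeR adjusted p = 0.0367). That fit called 8.51% of all genes. With WT replicates 2 and 3 summed the log2 fold change of Prkdc was -0.22 (edgeR adjusted p = 0.603). Mcm4, the replicative helicase subunit gene that starts 466 bases away on the opposite strand, had a log2 fold change of -0.28 ± 0.16 (edgeR adjusted p = 0.356), and -0.15 without WT replicate 1 and -0.13 without S34F replicate 3. The ratio of Prkdc to Mcm4 was 0.628 ± 0.128 in S34F and 0.637 ± 0.183 in WT (SD over 3 libraries; two-sided exact permutation p = 1). Among 7 end-joining genes edgeR, DESeq2 and limma-voom called 0, against 2.18%, 9.13% and 2.02% of all genes tested. At an unadjusted p under 0.05, which 22.0% of all genes reached, there was 1 gene of the 7. That gene was Xrcc5, the Ku80 gene, at 32.1, 29.1 and 31.3 CPM in S34F and 17.0, 25.6 and 26.0 CPM in WT (log2 fold change 0.43 ± 0.18, edgeR adjusted p = 0.201; 0.26 without WT replicate 1). Paxx, which encodes a Ku-binding factor, lay at 0.38 on the log2 scale (edgeR adjusted p = 0.333), at 0.58 without WT replicate 3, at 0.20 without WT replicate 1 and at 0.19 with GC and length trends removed.

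Smg1 (ENSMUSG00000030655, chromosome 7, 118131308 to 118243670, minus strand) gave 335, 332 and 385 CPM in S34F replicates 1 to 3, against 383, 449.5 and 458 CPM in WT replicates 1 to 3. S34F replicate 3 and WT replicate 1 were nearly equal, so the groups touched. For Smg1 the log2 fold change was -0.29 ± 0.12 (SE over 3 libraries a group; edgeR adjusted p = 0.203). The 9 genes that work with SMG1 in nonsense-mediated decay gave no call by edgeR, DESeq2 or limma-voom. These tools called 2.18%, 9.13% and 2.02% of all genes tested. An unadjusted p under 0.05 was held by 3 of the 9 genes and by 22.0% of all genes. The median log2 fold change of the 9 genes was 0.016. Smg6, the endonuclease gene, and Smg9, a subunit gene of the SMG1 complex, had opposite signs, at -0.27 and 0.30 (edgeR adjusted p = 0.166 and 0.176). Smg9 was at 0.11 with the GC trend removed.

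Mtor (ENSMUSG00000028991, chromosome 4, 148448611 to 148557683, plus strand) gave 107, 112 and 118 CPM in S34F replicates 1 to 3, against 144, 129 and 135 CPM in WT replicates 1 to 3. Every S34F library lay below every WT library. The log2 fold change of -0.28 ± 0.10 did not pass (SE over 3 libraries a group; edgeR adjusted p = 0.165), and it was -0.39 with the GC trend removed (adjusted p = 0.0861). Among 11 tested genes of the mTOR complexes and their regulators edgeR called 0, DESeq2 1 and limma-voom 0, and 3 had an unadjusted p under 0.05. The shares over all genes tested were 2.18%, 9.13% and 2.02% for these calls and 22.0% for such a p. Mlst8, the subunit gene common to both complexes, had 25.3, 25.3 and 30.0 CPM in S34F and 19.8, 19.0 and 20.4 CPM in WT. It lay above WT in every S34F library, with a log2 fold change of 0.44 ± 0.13 (edgeR adjusted p = 0.114, DESeq2 adjusted p = 0.0483; edgeR 0.352 with WT replicates 2 and 3 summed). Akt1s1, the gene of the inhibitory subunit PRAS40, had a log2 fold change of 0.39 ± 0.14 (edgeR adjusted p = 0.158, 0.0356 without WT replicate 1 and 0.467 with WT replicates 2 and 3 summed). The fit without WT replicate 1 called 8.51% of all genes. Akt1s1 was at 0.20 with the GC trend removed and at 0.18 with GC and length trends removed. Rictor, which defines the second complex, had 146, 145 and 137 CPM in S34F and 154, 185 and 180.2 CPM in WT, with a log2 fold change of -0.28 (edgeR adjusted p = 0.188). Rictor was chosen for its place in the complex after its values were seen.

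Trrap (ENSMUSG00000045482, chromosome 5, 144767732 to 144859778, plus strand) gave 409, 419 and 438 CPM in S34F replicates 1 to 3, against 464, 522 and 509.9 CPM in WT replicates 1 to 3. The groups did not overlap. For Trrap the log2 fold change was -0.24 ± 0.11 (SE over 3 libraries a group; edgeR adjusted p = 0.229), and its 95% interval of -0.48 to 0.0014 ended at about no change. The 28 genes of the TIP60 and SAGA complexes gave no call by edgeR or limma-voom and 3 by DESeq2. An unadjusted p under 0.05 was held by 5 of them, and the median log2 fold change was 0.016. Over all genes tested, edgeR called 2.18%, limma-voom 2.02% and DESeq2 9.13%, and 22.0% had an unadjusted p under 0.05. Atxn7l3, a gene of the SAGA deubiquitinase module, averaged 163 ± 17.3 CPM in S34F and 125 ± 4.27 CPM in WT (SD, n = 3), with an edgeR adjusted p of 0.106 and a DESeq2 adjusted p of 0.041. Ing3, a TIP60 complex gene that binds methylated histones, averaged 61.2 ± 8.27 CPM in S34F and 83.3 ± 6.26 CPM in WT, with an edgeR adjusted p of 0.106 and a DESeq2 adjusted p of 0.0383. The other DESeq2 call was Ep400, the TIP60 complex ATPase gene (adjusted p = 0.0492). With WT replicates 2 and 3 summed, the edgeR adjusted p was 0.352 for Atxn7l3, 0.334 for Ing3 and 0.419 for Ep400. The log2 fold changes of Atxn7l3 and Ing3, 0.39 and -0.44, were 0.26 and -0.29 with the GC trend removed.

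None of the 3 chaperone genes passed the test by edgeR, DESeq2 or limma-voom. Telo2 (ENSMUSG00000024170, chromosome 17, 25099570 to 25115967, minus strand) gave 72.6, 57.0 and 66.0 CPM in S34F replicates 1 to 3, against 55.8, 46.7 and 47.0 CPM in WT replicates 1 to 3. All S34F libraries lay above all WT libraries, by a small margin between S34F replicate 2 and WT replicate 1. Its log2 fold change of 0.39 ± 0.13 did not pass (SE over 3 libraries a group; edgeR adjusted p = 0.143; 95% interval 0.09 to 0.69). Tti1 (chromosome 2, 157981803 to 158028433, minus strand) had 73.1, 63.3 and 68.5 CPM in S34F and 64.9, 67.7 and 68.8 CPM in WT. Tti2 (chromosome 8, 31150315 to 31164702, plus strand) had 26.5, 21.4 and 20.5 CPM in S34F and 20.9, 24.5 and 24.5 CPM in WT. The groups overlapped widely for both. The log2 fold changes of 0.025 ± 0.10 for Tti1 and -0.033 ± 0.15 for Tti2 were close to 0, and both changed sign in alternatives, among them Tti1 with upper-quartile factors, with library totals alone and with the GC trend removed, and Tti2 with the GC trend removed or WT replicates 2 and 3 summed. Their 95% intervals, -0.21 to 0.26 and -0.38 to 0.31, leave room for small changes. The gene Mak16 on the opposite strand overlaps 14.6% of the exon bases of Tti2, and the strand setting used in counting is not known.

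Within each library, Telo2 counts were 0.715 ± 0.0367 of the summed counts of Tti1 and Tti2 in S34F and 0.554 ± 0.0841 in WT (SD over 3 libraries). The groups did not overlap in this ratio (two-sided exact permutation p = 0.1, the smallest possible here, adjusted p = 0.167). Telo2 alone did not overlap either, so the ratio adds no separate support. Tti1 shares its start region with Rprd1b, which encodes an RNA polymerase II regulator and starts 64 bases away on the opposite strand. Rprd1b had 102, 85.1 and 81.6 CPM in S34F and 111, 106 and 106 CPM in WT, with a log2 fold change of -0.27 ± 0.12 (edgeR adjusted p = 0.22). The ratio of Tti1 to Rprd1b was 0.768 ± 0.0632 in S34F and 0.623 ± 0.0358 in WT, again without overlap (two-sided exact permutation p = 0.1, adjusted p = 0.167). Rprd1b alone did not overlap either.

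**Figure D4:**
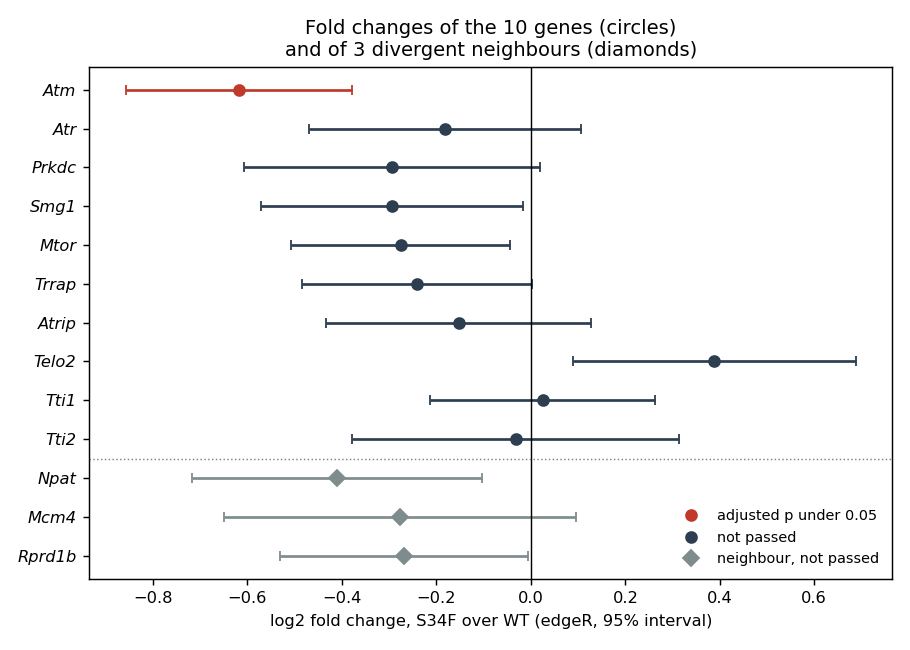
Log2 fold change of the 10 genes (circles) and of 3 genes that start close by on the opposite strand (diamonds), S34F over WT, with 95% intervals from edgeR. Atm is the 1 gene that passed (red), and Telo2 lies on the positive side.

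Among the partners of the chaperone, Pih1d1 rose. Pih1d1, the R2TP subunit gene whose product binds phosphorylated TELO2, had 43.8, 39.8 and 44.8 CPM in S34F, against 25.7, 25.0 and 25.4 CPM in WT. The WT libraries were nearly equal, and every S34F library was far above them. Pih1d1 rose 1.69-fold, with a log2 fold change of 0.76 ± 0.12 (SE over 3 libraries a group; edgeR adjusted p = 0.0241). With WT replicates 2 and 3 summed the log2 fold change was 0.75 and did not pass (adjusted p = 0.119). With the GC trend removed it was 0.59 (adjusted p = 0.051). The call was also lost without S34F replicate 1, S34F replicate 3, WT replicate 2 or WT replicate 3 (edgeR adjusted p = 0.0854, 0.0766, 0.133 and 0.12). Of the 9 R2TP and HSP90 genes listed, 8 were tested, and the other 7 did not pass, where edgeR called 2.18% of all genes tested. The ATPase subunit genes Ruvbl1 and Ruvbl2 had log2 fold changes of -0.03 and 0.20, and the scaffold gene Rpap3 had -0.28 (edgeR adjusted p = 0.948, 0.598 and 0.318).

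**Figure D5:**
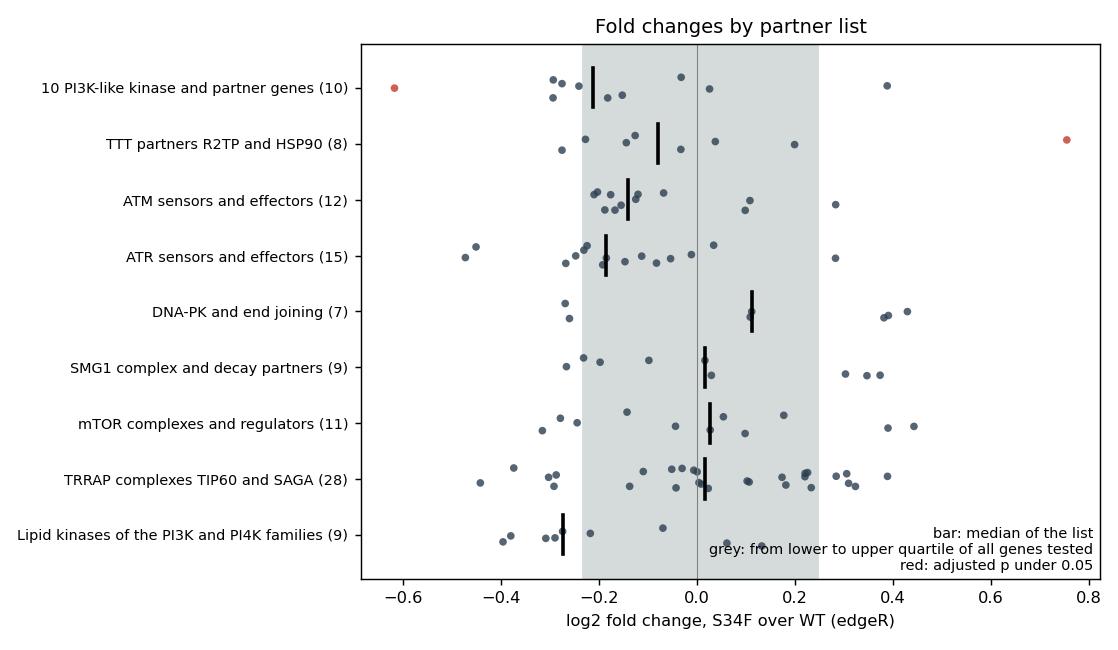
Log2 fold change (x axis, S34F over WT) of each tested gene in the 10-gene set and in 8 lists of genes that work with it or belong to the related lipid kinases, 1 point per gene, with the median as a bar. Grey runs from the lower to the upper quartile of all genes tested, -0.23 to 0.25. Atm and Pih1d1 are the genes that passed (red).

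The lipid kinases, which share the catalytic fold but phosphorylate phosphatidylinositol, were set beside the protein kinases. Of 9 tested genes edgeR called 0, DESeq2 1 and limma-voom 0, and 3 had an unadjusted p under 0.05. The shares over all genes tested were 2.18%, 9.13% and 2.02% for these calls and 22.0% for such a p. The median log2 fold change was -0.28, and 7 were negative. Pik3c3, the VPS34 gene of autophagy and endosomes, had 42.8, 39.5 and 38.7 CPM in S34F, against 53.8, 52.7 and 52.7 CPM in WT. Its log2 fold change was -0.40 ± 0.11 (SE over 3 libraries a group; edgeR adjusted p = 0.0873, DESeq2 adjusted p = 0.0273; edgeR 0.31 with WT replicates 2 and 3 summed). Pik3ca, the gene of the p110-alpha catalytic subunit, lay at -0.31 on the log2 scale (edgeR adjusted p = 0.159), at -0.15 with the GC trend removed and at -0.068 with GC and length trends removed.

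To compare levels between genes, CPM was divided by the length of the longest annotated transcript in kb. The order depends on this choice of length. All annotated exons together cover 23.6 kb for Atr, 24.0 kb for Smg1 and 20.9 kb for Trrap, against longest transcripts of 8.10, 15.6 and 12.5 kb. For Atm and Mtor they cover 10.3 and 10.1 kb, against 9.82 and 8.56 kb. Levels over all exon bases were not computed. In S34F cells the order by level per kb was Trrap at 33.8 ± 1.19, Atr at 23.1 ± 2.02, Smg1 at 22.5 ± 1.91 and Tti1 at 17.8 ± 1.28 (SD, n = 3). Telo2 followed at 14.0 ± 1.68, Mtor at 13.1 ± 0.604, Atm at 10.6 ± 0.775, Prkdc at 8.19 ± 0.151, Atrip at 7.58 ± 0.787 and Tti2 at 4.52 ± 0.638. In WT cells Trrap was at 40.0 ± 2.46, Smg1 at 27.6 ± 2.64, Atr at 26.2 ± 3.12, Tti1 at 17.5 ± 0.522 and Atm at 16.3 ± 0.739. Below Atm lay Mtor at 15.9 ± 0.868, Telo2 at 10.7 ± 1.12, Prkdc at 10.0 ± 1.72, Atrip at 8.43 ± 0.192 and Tti2 at 4.63 ± 0.41. The means of Atr and Smg1 differed by less than their spread in both groups, but Smg1 was above Atr in all 3 WT libraries. In S34F, Telo2 and Mtor did not differ beyond their spread, nor did Prkdc and Atrip. In WT, neither did Atm and Mtor, Telo2 and Prkdc or Prkdc and Atrip. Atm was below Mtor in all 3 S34F libraries by this measure and above it in WT replicates 2 and 3.

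The position of WT replicate 1 differed among the genes. It was 0.729 of the mean of WT replicates 2 and 3 for Prkdc, 0.807 for Atr and 0.844 for Smg1, and for these 3 genes it lay within the range of the S34F libraries. It also lay there for Tti1 and Tti2, at 0.951 and 0.854 of that mean, as did WT replicates 2 and 3. It was 1.04 of that mean for Atm, 1.09 for Mtor and 1.19 for Telo2. For Atm, Mtor, Trrap and Telo2 it lay outside the range of the S34F libraries, on the side of the other WT libraries.

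Among 8488 tested genes averaging 10 CPM or more under an established symbol, the 5 whose log2 CPM followed that of Atm most closely over the 6 libraries were Tefm, Ankrd17, Yeats2, Fmr1 and Lrrc45. Pearson's r was 0.997, 0.995, 0.995, 0.994 and 0.993. The 6 points share the 2 groups, so a high r mostly reflects levels that differ between the groups and are even within them. All 5 were lower in every S34F library than in every WT library. Their log2 fold changes lay between -0.42 and -0.16, smaller than that of Atm, and none passed by edgeR (adjusted p from 0.075 to 0.383). DESeq2 gave adjusted p-values of 0.0123 for Yeats2, 0.0453 for Fmr1 and 0.0315 for Lrrc45. edgeR called Lrrc45 with the GC trend removed, at -0.59 (adjusted p = 0.0499), and with GC and length trends removed, at -0.61 (adjusted p = 0.0404), beyond the -0.50 and -0.41 of Atm in the same fits. These fits called 1.21% and 1.29% of all genes. Fmr1 was at -0.12 with the GC trend removed.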

How the data were processed

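Messenger RNA of 6 libraries, 3 S34F and 3 WT, was measured. The authors deposited raw read counts per Ensembl gene, made with HISAT2 and featureCounts on mm10, per the submitters' processing notes. Their versions, strand setting, annotation and treatment of multi-mapping reads are not given in the sources. Libraries were made with a directional kit, per the labels' protocols. Sample titles gave the groups, the replicate numbers and the match to columns. At these depths 1 count equalled 0.0523 to 0.0606 CPM.

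Counts were tested in edgeR 4.0.16 (R 4.3.3) by a robust quasi-likelihood F test on genotype after filterByExpr and TMM normalisation, with Benjamini-Hochberg adjustment at 0.05 over all tested genes. SEs were derived from the fold change and its F value. Ratios of genes were compared by an exact permutation test. GC content and length came from the longest transcript in GENCODE M21 (mm10), and promoters from RefSeq. Alternatives used DESeq2 1.42.0, limma-voom 3.58.1, other factors and filters, loess offsets (span 0.5), the replicate number as a block, summed or omitted libraries. Procedures were tested on simulated data. The genes and lists were chosen with earlier results of these data known. Named were the 10 genes, U2af1, genes starting within 2 kb on the opposite strand, the 5 genes most like Atm, and from each partner list the called members or the 2 with the smallest p. Rictor, Ruvbl1, Ruvbl2, Rpap3, Ep400 and the marker genes were chosen outside this rule, after their values were seen. Of 102 entries in 8 lists, 1 had no row in the table. Figures were drawn with matplotlib 3.10.9.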

Additional observations from a re-analysis of the deposited data

How the results depend on the processing

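Atm was lower in S34F in all 18 alternatives, with log2 fold changes from -0.68 to -0.41 and adjusted p-values from 4.1e-05 to 0.229, and it passed in 10. It did not pass with WT replicates 2 and 3 summed (-0.63), with the GC trend removed (-0.50), with GC and length trends removed (-0.41) or with the sum and the GC trend together (-0.52). Leaving out 1 library gave -0.68 to -0.58. The cause was not tested beyond these settings.

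The count of changed genes was 293, and 763 with no count filter, 1227 by DESeq2, 20 with WT replicates 2 and 3 summed, 163 and 173 with the GC and the GC and length trends removed, 15 with the sum and GC together, and 19 to 1177 with 1 library left out. Of the 10 genes 1 was called, against 0 with the sum, with GC, with GC and length, and with the sum and GC, and 0 to 2 with 1 library left out.

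With the replicate block 1418 genes and 2 of the 10, Atm and Telo2 (adjusted p = 0.0465), were called. Same-numbered libraries deviated together with correlations of 0.332, 0.159 and 0.0719. S34F replicate 2 gave 0.153 with WT replicate 3, and S34F replicate 3 gave 0.0801 with WT replicate 2. As WT replicates 2 and 3 are nearly alike, these values cannot settle whether the numbers mark pairs. The reported fit did not use the block. The block also gave calls to Npat (0.0327), Chek1 (0.0324), Ing3 (0.0262), Atxn7l3 (0.038), Pik3c3 (0.0463) and Yeats2 (0.0343).

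For the other 34 named genes, 561 of 610 values kept side and sign. Sign changed in 20 values of 6 genes, none past the threshold. Atr was 0.062 with GC and length trends removed and 0.016 with the sum and GC. Brcc3 was 0.11, 0.13 and 0.11 with GC, GC and length, and the sum and GC. Tti1 was -0.0062 with upper-quartile factors, -0.0096 with library totals, -0.0086 with GC, -0.0010 with GC and length, and -0.0335 to 0.080 with 1 library left out. Tti2 was 0.0015 with the sum, 0.0032 with GC, 0.033 with GC and length, 0.036 with the sum and GC, and -0.16 to 0.042 with 1 library left out. U2af1 was -0.046 with the sum and GC. The antisense gene 1700065D16Rik beside Atr, at 0.10 in the reported fit, ran from -0.065 to 0.23 with 1 library left out. With SEs of 0.10 to 0.15 for the 10 genes, small changes go undetected.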
